A study of Mus musculus with 6 samples.

Results

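Hox genes were followed across 6 arrays of mouse embryonic and lymph node (LN) stromal cells. They were taken as every gene whose own array entry carried 1 symbol made of Hox, a cluster letter from a to d and a number. That gave 37 Hox genes, out of 19938 genes with an entry of their own. Hoxb8 occurred only in an entry shared with Hoxb7 and was not counted as a member. The Hoxa cluster on chromosome 6 contributed 10 members. The Hoxb cluster on chromosome 11, the Hoxc cluster on chromosome 15 and the Hoxd cluster on chromosome 2 contributed 9 each. Each member was measured by 1 entry.

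The arrays covered 3 kinds of cell. Mouse embryonic fibroblasts (MEF) had been grown in culture from trypsin-digested C57BL/6JJcl embryos aged E11.5-13.5, and the labels did not say which body parts entered the culture. LN stroma had been sorted fresh from enzyme-digested nodes of adult C57BL/6JJcl mice as cells lacking CD45 and CD31 and carrying podoplanin and VCAM-1. The body sites of those nodes and any pooling of mice were not given. BLS4 and BLS12 were cultured stromal lines from LN of BALB/cA mice, and whether either was a clone was not given. Each line was measured without stimulation and after 2 days with 1 µg/ml of goat polyclonal antibody acting as an agonist of LTβR, the lymphotoxin β receptor, with no control antibody beside it. Every group had 1 array. MEF and LN stroma therefore differed in age, tissue and culture at once. The lines differed from LN stroma in strain and culture, and from MEF in strain and tissue, so these factors cannot be told apart.

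Hox genes encode homeodomain transcription factors that give cells a position along the body axis. Their order on the chromosome follows the order in which they are expressed from head to tail, and genes of the same rank in different clusters form a paralog group. Fibroblasts of adult tissues keep much of the Hox pattern of the site they came from, also in culture. The genes at the 5′ end of the Hoxa and Hoxd clusters pattern the limbs and the urogenital tract, and the 5′ Hoxc genes act in the tail, hindlimb, skin and hair. Below, paralog groups 1 to 3 are called anterior, 4 to 8 central and 9 to 13 posterior.

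All values are log2 of the deposited intensity, and differences are differences of these log2 values. Levels of different genes were not set against each other, because each entry has its own probes. The table gave no detection call, so the median of each array (log2 5.69 to 5.82) served as the yardstick for a level. Whether a gene reaches it also depends on its probes, so counts by cluster or paralog group do not show which genes are expressed. In bulk samples such as these, fewer cells of a type and less RNA per cell cannot be told apart. Of 8 markers of fibroblastic stroma, 7 or 8 lay at or above the median on each array. Myeloid markers were at or above it for 6 of 6 genes in MEF (summed intensity 1852) and 1 of 6 on each of the other arrays (252 to 955). In LN stroma this held for 4 of 6 endothelial markers (summed intensity 581, against 186 to 267 elsewhere), with Tek at 8.18 and Pecam1, which encodes the CD31 used in the sort, at 6.44. Emcn, also among these 4, went the other way, with 5.88 in LN stroma and 6.96 in MEF. None of the 7 measured lymphocyte markers reached the median there, including Ptprc, which encodes CD45, at 5.70.

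Hox transcripts were measured at or above the array median for 26 of 37 genes in MEF, 22 in LN stroma, 25 and 24 in BLS4 without and with antibody, and 25 and 26 in BLS12. Over all genes the share was 59.1% in MEF, 59.2% in LN stroma, 58.8% and 58.6% in BLS4, and 58.8% and 57.5% in BLS12. The corresponding Hox shares were 70.3%, 59.5%, 67.6%, 64.9%, 67.6% and 70.3%, so LN stroma lay at the level of all genes. This order rests on the yardstick: at the 60th percentile of each array MEF and LN stroma both had 15 Hox genes (40.5%, against 48.1% and 48% of all genes) and the lines had 19 or 20. In all 6 arrays at once, 21 Hox genes reached the median, against 51.7% of all genes. No array reached it for 7 Hox genes, namely Hoxa2, Hoxa3, Hoxb13, Hoxc11, Hoxc12, Hoxd1 and Hoxd12, against 34% of all genes. Central genes reached it most often: 12 to 14 of 14 were at or above the median on each array. Among the 7 anterior genes the count was 3 or 4. Posterior genes separated the samples more: 10 of 16 reached the median in MEF, 7 in LN stroma and 8 or 9 in the lines.

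**Figure D1:**
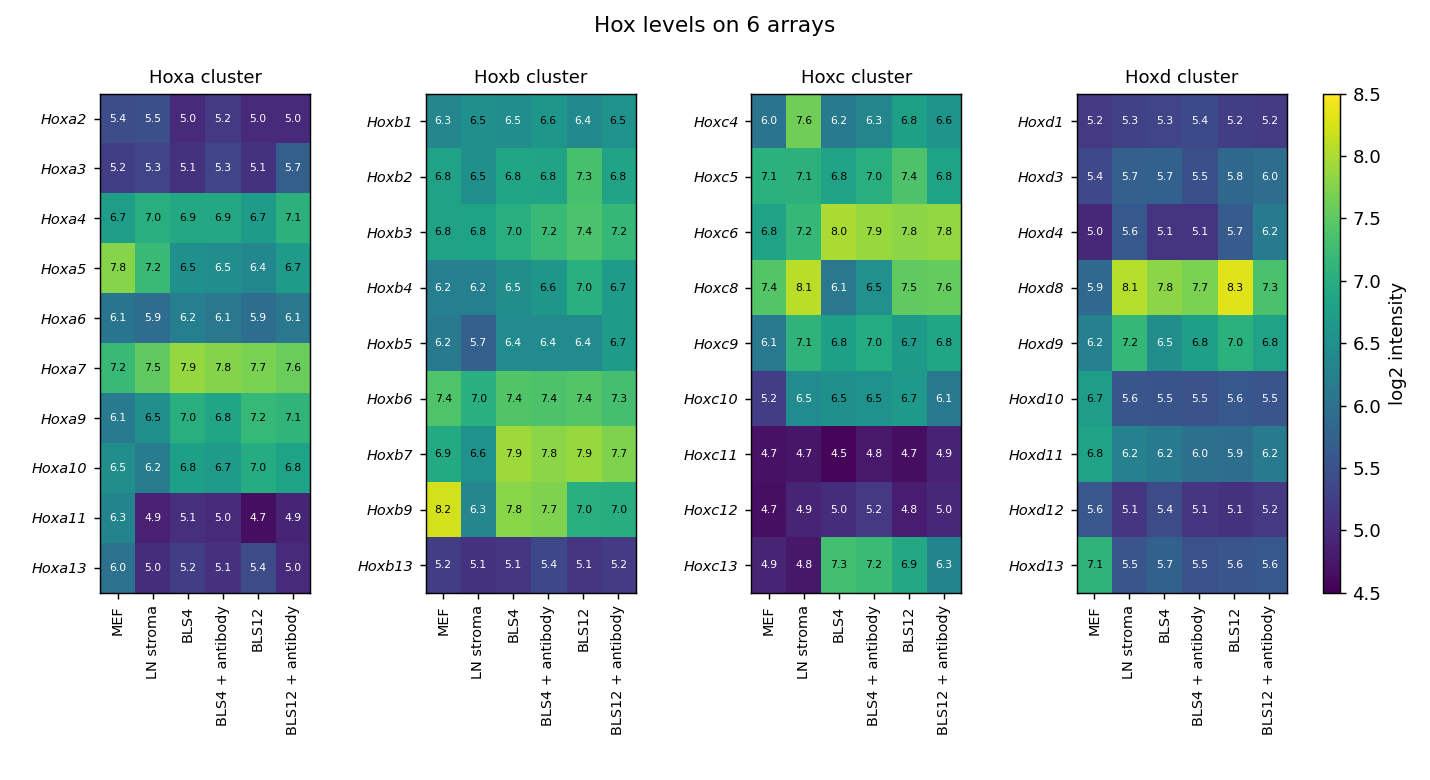
Log2 intensity of the 37 Hox genes (rows, by cluster and paralog group) on the 6 arrays (columns); colour and printed values give the same number, 1 array per column. Hoxd10, Hoxd13, Hoxa11 and Hoxa13 are brighter in MEF than on the other 5 arrays, Hoxd8 is dimmest in MEF, and Hoxc13 is bright only on the 4 cell line arrays.

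The Hoxd cluster showed opposite differences from MEF at its 5′ end and in its middle. Hoxd13 and Hoxd10 were higher in MEF than on every other array, whereas Hoxd8 was lower in MEF than on every other array. The 250 bases before the RefSeq start of these 3 genes are printed because these members of 1 cluster differed from MEF in opposite directions. They are from GRCm38.p6, plus strand, at chr2:74667975-74668224 for Hoxd13, chr2:74691641-74691890 for Hoxd10 and chr2:74704365-74704614 for Hoxd8. Capitals mark matches on either strand to GGGCGG (a GC box), TTTAT (the core bound by posterior Hox and caudal factors) or TGATNNAT (a joint Hox and Pbx site), overlapping matches included.
Hoxd13: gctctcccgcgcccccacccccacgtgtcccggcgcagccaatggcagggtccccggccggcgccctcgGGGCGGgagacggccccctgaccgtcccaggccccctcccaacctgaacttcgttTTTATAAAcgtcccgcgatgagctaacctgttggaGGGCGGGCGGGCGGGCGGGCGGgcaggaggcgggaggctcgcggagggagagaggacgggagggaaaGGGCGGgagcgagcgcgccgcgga
Hoxd10: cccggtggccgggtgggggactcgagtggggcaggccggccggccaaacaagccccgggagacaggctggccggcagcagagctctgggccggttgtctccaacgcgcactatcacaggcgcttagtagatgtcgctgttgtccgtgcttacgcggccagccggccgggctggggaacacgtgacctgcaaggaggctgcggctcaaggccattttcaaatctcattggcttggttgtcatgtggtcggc
Hoxd8: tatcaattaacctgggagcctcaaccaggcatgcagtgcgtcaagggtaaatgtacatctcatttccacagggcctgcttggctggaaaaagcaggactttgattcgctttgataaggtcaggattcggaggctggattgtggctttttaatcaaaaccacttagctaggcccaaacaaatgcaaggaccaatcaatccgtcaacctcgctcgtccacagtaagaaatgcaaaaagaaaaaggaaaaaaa

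The stretch before Hoxd13 held 31 CpG dinucleotides and 74.4% G and C, with 7 GC box matches and 2 overlapping TTTAT matches. Before Hoxd10 there were 20 CpG and 65.6% G and C, and before Hoxd8 6 CpG and 44.4%, with none of the 3 motifs in either stretch. The medians over 32851 RefSeq promoters of this length were 6 CpG and 52.4% G and C. A GC box occurred in 32.7% of them, TTTAT in 37.3% and TGATNNAT in 7.68%. Of 23 Hox promoters in the table, 9, 8 and 3 held these motifs, and their medians were 13 CpG and 59.2% G and C. These matches describe the letters in the window only.

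Hoxd13, which patterns digits and the genital bud, had a level of 7.10 in MEF, 5.55 in LN stroma, 5.74 and 5.50 in BLS4 without and with antibody, and 5.56 and 5.60 in BLS12. Hoxd10, a gene of limb and lumbar cord patterning, had 6.73 in MEF and 5.57, 5.54, 5.53, 5.60 and 5.55 on the other arrays in the same order. For both genes MEF stood apart, while the other 5 arrays lay close to or below their medians and near each other. Hoxd11, which shapes the forearm and kidney with its Hoxa paralog, had 6.80 in MEF against 6.25 in LN stroma and 5.94 to 6.17 in the lines. The most 5′ Hoxd gene at or above the median was Hoxd13 in MEF and, by a small margin, in unstimulated BLS4 (intensity 53.6, median 53.4), and Hoxd11 on the other arrays. Hoxd12 stayed below the median throughout, from 5.08 in unstimulated BLS12 to 5.59 in MEF. All 4 genes of Hoxd paralog groups 10 to 13 were thus highest in MEF, by differences that the 3 unstimulated comparisons put between -0.16 (Hoxd12, BLS4 minus MEF) and -1.54 (Hoxd13, LN stroma minus MEF).

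Hoxd9 and the central and anterior Hoxd genes did not share that order. Hoxd8 had 5.87 in MEF, close to the median, and 8.05 in LN stroma, 7.81 and 7.70 in BLS4 and 8.30 and 7.35 in BLS12. Every LN-derived array was therefore higher than MEF, which for the unstimulated arrays came to 4.52-fold in LN stroma, 3.83-fold in BLS4 and 5.41-fold in BLS12. Hoxd9 was also lowest in MEF, at 6.25, against 7.17 in LN stroma and 6.48 to 7.05 in the lines. Hoxd4, a gene of the hindbrain and neck boundary, reached the median only in antibody-treated BLS12 (6.16) and lay between 4.95 and 5.67 elsewhere. Hoxd3 ranged from 5.39 to 5.95 and Hoxd1 from 5.17 to 5.40.

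**Figure D2:**
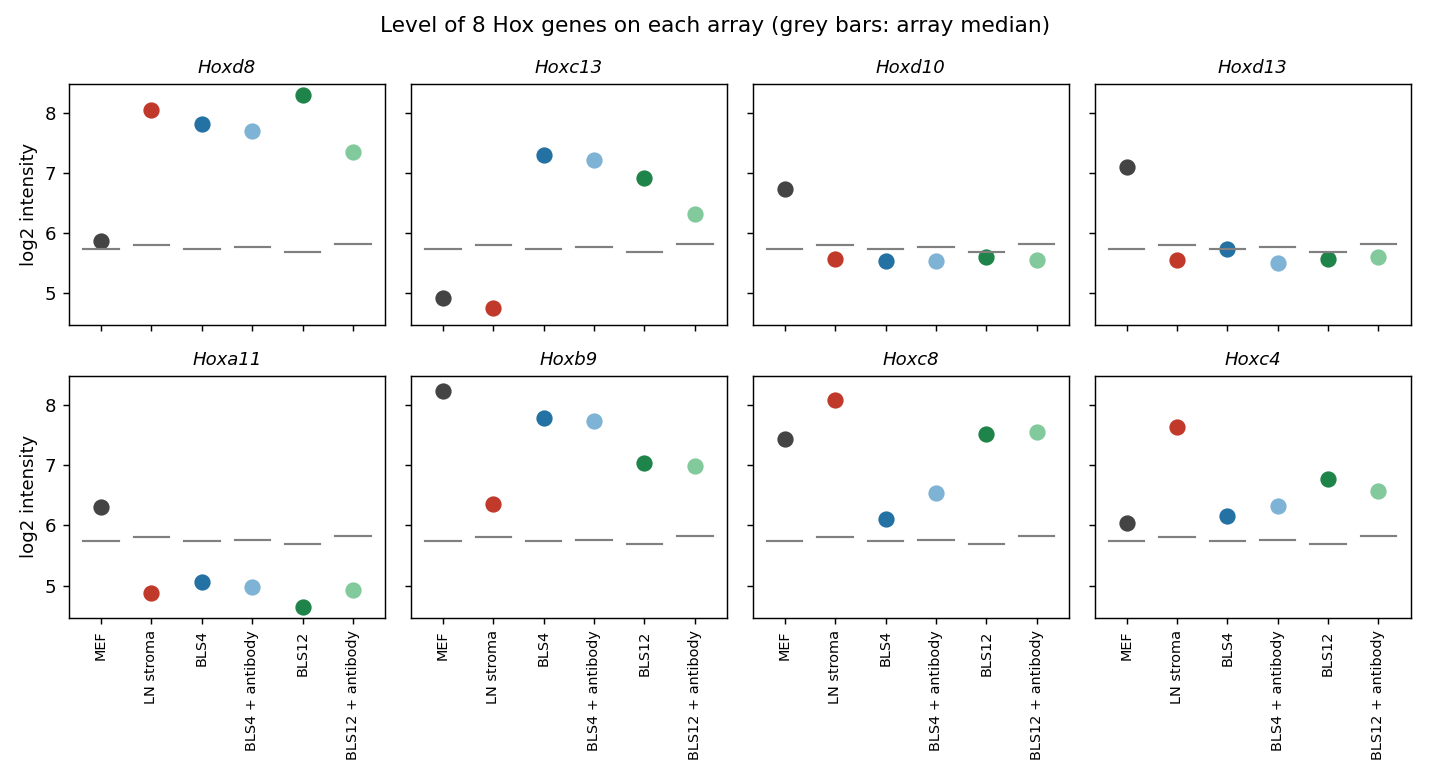
Log2 intensity (vertical axis) of 8 Hox genes on each of the 6 arrays (1 point per array); grey bars give each array's median over the table. Hoxd10, Hoxd13 and Hoxa11 lie highest in MEF, Hoxd8 lowest in MEF, Hoxc13 is below the bar in MEF and LN stroma only, and Hoxc8 and Hoxb9 differ between BLS4 and BLS12.

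In the Hoxa cluster, the most 5′ genes again stood highest in MEF. Hoxa11, the forearm and kidney gene, had 6.30 in MEF, 4.87 in LN stroma, 5.06 and 4.97 in BLS4, and 4.65 and 4.92 in BLS12. Hoxa13, which acts in the digits and the hindgut and urogenital tract, had 6.01 in MEF against 5.03 in LN stroma, 5.22 and 5.07 in BLS4, and 5.43 and 4.97 in BLS12. Both were above the median in MEF and below it on every other array, so the folds against those arrays are approximate. The last gene of the cluster at or above the median was Hoxa13 in MEF and Hoxa10 elsewhere.

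Hoxa5, which is needed for lung and upper trunk development, was highest in MEF (7.77), lower in LN stroma (7.20) and lowest in the lines (6.50 and 6.46 in BLS4, 6.36 and 6.70 in BLS12). Hoxa9, known for its role in blood progenitors and the trunk, showed the reverse order, with 6.14 in MEF, 6.50 in LN stroma and 6.85 to 7.18 on the 4 arrays of the lines. The Hoxa9 arrays of the lines did not overlap with the other samples. Hoxa10 lay between 6.20 in LN stroma and 6.97 in BLS12, and Hoxa7 between 7.21 in MEF and 7.87 in BLS4. Hoxa4 (6.71 to 7.07) and Hoxa6 (5.93 to 6.23) varied little, and Hoxa2 (4.97 to 5.47) and Hoxa3 (5.08 to 5.71) stayed below the median.

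In the Hoxc cluster 8 of 9 genes had a higher value in LN stroma than in MEF, with a median difference of 0.38, against 49.2% of all genes. The differences of Hoxc5 (0.01) and Hoxc11 (0.04) were close to 0, and Hoxc11 and Hoxc12 (0.25) were below the median on every array. The Hoxd cluster had 5 of 9 positive, Hoxa 5 of 10 and Hoxb 2 of 9. Hoxc13, which controls hair and nail keratins, had 4.92 in MEF and 4.76 in LN stroma, both below the median. The lines had 7.29 and 7.22 in BLS4 and 6.92 and 6.31 in BLS12, all above it. The lines therefore did not overlap with either primary sample, and unstimulated BLS4 was 5.77-fold and BLS12 4.45-fold above LN stroma, with an approximate size because the lower level was below the median. Hoxc11 (4.55 to 4.89) and Hoxc12 (4.67 to 5.16), which lie between Hoxc10 and Hoxc13 on the chromosome, were below the median on all 6 arrays. Of the genes at or above the median, the most 5′ one was accordingly Hoxc9 in MEF, Hoxc10 in LN stroma and Hoxc13 in the lines.

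Hoxc10, a gene of lumbar and hindlimb identity, had 5.23 in MEF and 6.45 in LN stroma, with 6.50 and 6.54 in BLS4 and 6.65 and 6.11 in BLS12. LN stroma lay within the range of the lines, and MEF lay below all of them. Hoxc9, a thoracic gene, was likewise lowest in MEF (6.12), with 7.10 in LN stroma and 6.68 to 6.96 in the lines. Hoxc8, which specifies thoracic and forelimb-level identity, divided the lines: it had 7.43 in MEF, 8.09 in LN stroma, 6.10 and 6.53 in BLS4, and 7.52 and 7.56 in BLS12. Hoxc4, the most anterior gene of the cluster, was highest in LN stroma at 7.64, against 6.04 in MEF, 6.15 and 6.33 in BLS4 and 6.77 and 6.57 in BLS12. Hoxc6, a gene of the upper trunk, had 6.80 in MEF and 7.17 in LN stroma, below the 7.80 to 7.99 of the lines. Hoxc5 ranged from 6.82 to 7.38 without a gap between groups.

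In the Hoxb cluster, 8 of 9 genes were at or above the median in MEF and the lines and 7 in LN stroma. Hoxb9, a thoracic gene, had 8.23 in MEF, 6.35 in LN stroma, 7.79 and 7.73 in BLS4, and 7.03 and 6.99 in BLS12. The order was MEF, BLS4, BLS12 and LN stroma, with no overlap between the pairs of arrays of a line. Hoxb7, another gene of the trunk, had 6.94 in MEF and 6.56 in LN stroma against 7.91 and 7.80 in BLS4 and 7.88 and 7.73 in BLS12. All 4 central Hoxb genes were lower in LN stroma than in MEF, by a median of 0.37, and all 4 were higher in both unstimulated lines than in MEF. For Hoxb4, which acts in the cervical trunk and in blood stem cells, the LN stroma difference was -0.01, and for Hoxb6 the lines exceeded MEF by 0.02 and 0.03 only. Hoxb5 had 6.16 in MEF, 5.73 in LN stroma and 6.43 to 6.70 in the lines.

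The anterior Hoxb genes act in the hindbrain. Hoxb1 had a range of 0.26 over the 6 arrays (6.35 to 6.61). Hoxb2 lay between 6.51 in LN stroma and 7.34 in unstimulated BLS12, and Hoxb3 between 6.80 in MEF and 7.36 in unstimulated BLS12. Hoxb13, the most 5′ gene, was below the median everywhere (5.09 to 5.37).

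The gene models of Hoxd10 and Hoxd11, Hoxd3 and Hoxd4, Hoxb3 and Hoxb4, and Hoxa3 with each of Hoxa4, Hoxa5 and Hoxa6 overlap in RefSeq. The positions of the probes were not used here, so signal from these 6 pairs may be shared.

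Counted over the clusters, MEF was the highest of the 6 arrays for 8 Hox genes, of which 7 were posterior (Hoxa11, Hoxa13, Hoxb9, Hoxd10, Hoxd11, Hoxd12 and Hoxd13) and 1 was the central Hoxa5. It was the highest array for 18.3% of all genes, so this count is near the background, and unstimulated BLS12 was highest for 9 Hox genes. MEF was the lowest array for 14 Hox genes, against 20.9% of all genes, and these were 4 anterior, 5 central and 5 posterior ones. LN stroma was lowest for 10, against 26.5%. Paralog group 13 was lower in LN stroma than in MEF in all 4 clusters, but for Hoxb13 and Hoxc13 both levels were below the median. The myeloid markers named above were also highest in MEF, and their part in the MEF differences was not tested.

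The question of the first comparison was how fresh LN stroma differs from MEF. At least 4-fold, 1 of 27 Hox genes kept was higher in LN stroma, Hoxd8 with a difference of 2.18, against 4.64% of all 12613 genes kept. None was at least 4-fold lower, against 2.93%. With 1 array each there was no test. At 2-fold, 3 Hox genes were higher, Hoxd8, Hoxc4 (1.60) and Hoxc10 (1.22), against 10.2% of all genes. At the same size 4 were lower, Hoxb9 (-1.88), Hoxd13 (-1.54), Hoxa11 (-1.42) and Hoxd10 (-1.15), against 12.1%. The 4 lower genes were posterior, and 2 of the 3 higher genes were central. This split rests on the filter: Hoxa11, Hoxd10 and Hoxd13 were kept only through their level in MEF, and Hoxc10 only through LN stroma. Where both arrays had to reach the median, only Hoxd8, Hoxc4 and Hoxb9 of these genes were kept. The median difference was -0.01 over the Hox genes and -0.11 over all genes.

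The unstimulated lines were set against the same MEF array. No Hox gene of 29 kept was at least 4-fold higher in both lines, against 0.308% of all genes, and none was 4-fold lower, against 1.14%. At 2-fold, 4 were higher in both lines, against 1.97%: Hoxd8 (1.94 in BLS4 and 2.43 in BLS12), Hoxc13 (2.37 and 2.00, just under 4-fold in BLS12), Hoxc10 (1.27 and 1.42) and Hoxc6 (1.19 and 1.01). Another 4 were lower in both, against 3.85%: Hoxd13 (-1.35 and -1.53), Hoxa5 (-1.27 and -1.41), Hoxa11 (-1.23 and -1.64) and Hoxd10 (-1.19 and -1.13). Where every compared array had to reach the median, only Hoxd8, Hoxc6 and Hoxa5 of these genes were kept. With BLS4 alone Hoxc13 passed 4-fold (1.15% of all genes did so upwards), and with BLS12 alone Hoxd8 did (1.44%). The median over the Hox genes was 0.28, against 0.01 over all genes.

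Because LN stroma and the lines were compared with 1 shared MEF array, their differences from it are not independent, and only the values are given. Hoxd8 differed by 2.18 in LN stroma, 1.94 in BLS4 and 2.43 in BLS12. Hoxc10 differed by 1.22, 1.27 and 1.42, Hoxd10 by -1.15, -1.19 and -1.13, Hoxd13 by -1.54, -1.35 and -1.53, and Hoxa11 by -1.42, -1.23 and -1.64. These 5 genes are the ones past 2-fold against MEF both in LN stroma and in the lines, and their differences were similar in all 3 samples. For Hoxd10, Hoxd13 and Hoxa11 the 3 levels lay close to or below the median, so subtracting 1 MEF level gives similar values. Other genes past 2-fold in the lines differed less in LN stroma: Hoxa5 by -0.57, -1.27 and -1.41, and Hoxc6 by 0.38, 1.19 and 1.01. Hoxc13 differed by -0.15 in LN stroma and by at least 2.00 in the lines. For Hoxc4 the values were 1.60 in LN stroma, 0.11 in BLS4 and 0.74 in BLS12.

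**Figure D3:**
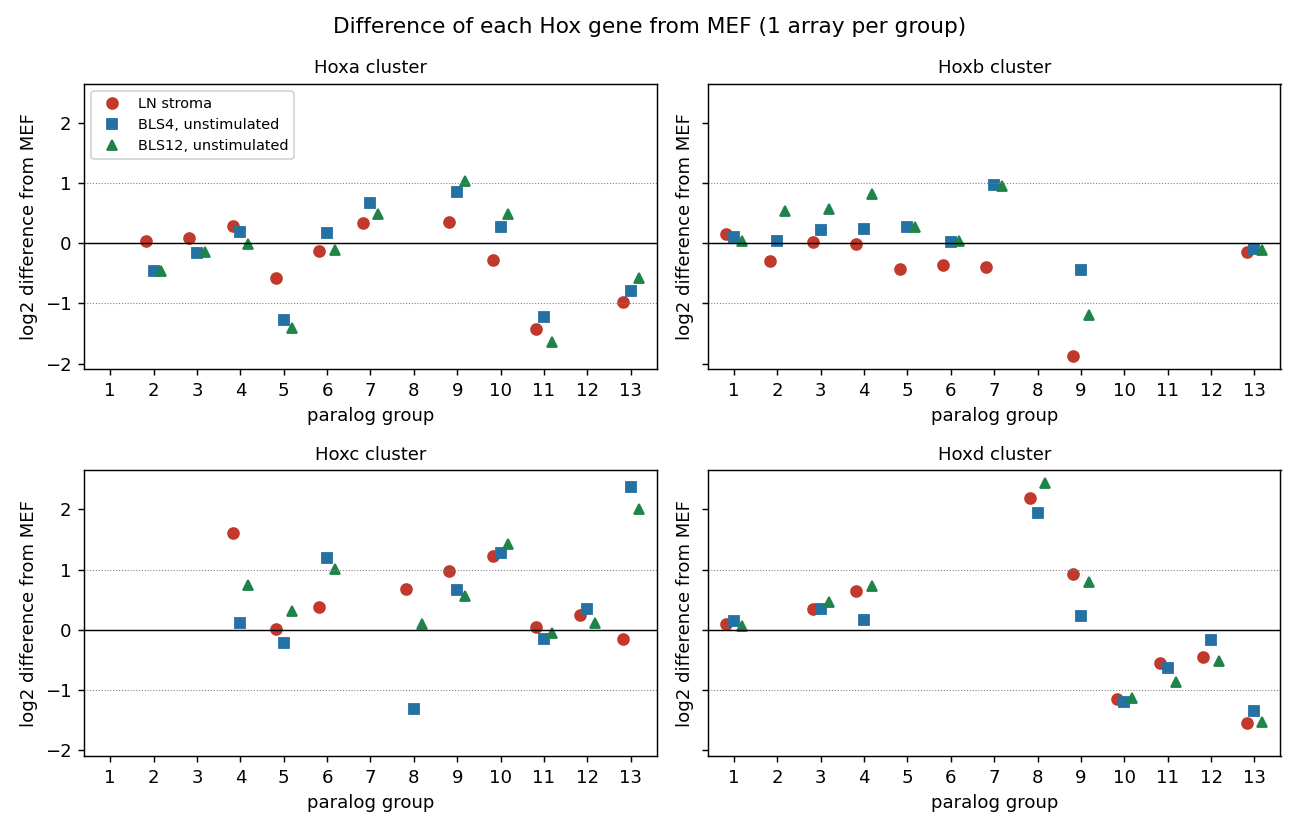
Log2 difference from MEF (vertical axis) of each Hox gene by paralog group (horizontal axis) in LN stroma, unstimulated BLS4 and unstimulated BLS12, 1 array each; dotted lines mark a 2-fold difference. Hoxd8 lies near 2 in all 3 samples, Hoxd10 and Hoxd13 lie below -1 in all 3, and Hoxc13 lies at 2 or above in the lines and at -0.15 in LN stroma.

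In the comparison of the unstimulated lines with LN stroma, Hoxc13 was the only gene of 26 kept that was at least 4-fold higher in both lines, by 2.53 in BLS4 and 2.15 in BLS12, against 0.569% of all genes. None was 4-fold lower, against 3.52%. Hoxc13 was kept only through the lines, because its level of 4.76 in LN stroma was below the median. Where every compared array had to reach the median, the count was 0. It was also 0 with the antibody-treated arrays in place of the unstimulated ones. Hoxb7 was more than 2-fold higher in both lines (1.35 and 1.32), which with Hoxc13 made 2 Hox genes against 4.25% of all genes, and 0 were 2-fold lower against 7.03%. With BLS4 alone, Hoxc8 (-1.99) and Hoxc4 (-1.50) were also more than 2-fold lower than in LN stroma, against 9.5% of all genes, and Hoxb9 (1.44) was more than 2-fold higher, against 8.14%. The endothelial markers in LN stroma described above moved with this comparison, and their part in it was not tested.

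The lines were compared with each other with a model that added a line term and an antibody term on their 4 arrays. Hoxc8 was higher in BLS12 than in BLS4 by 1.22 (SE 0.160), with a limma adjusted p of 0.00695. The difference was 1.41 without antibody and 1.03 with it. Hoxb9 was lower in BLS12 by 0.75 (SE 0.137, limma adjusted p = 0.0168), with -0.75 and -0.74 in the same order. These were the 2 calls among 25 Hox genes tested, whereas 23.6% of all 11988 genes were called, so the share among the Hox genes was below that of all genes. The median absolute difference was 0.16 over the Hox genes and 0.28 over all genes.

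Hoxc13 (-0.64, SE 0.178) missed the threshold with a limma adjusted p of 0.052. It passed at 0.0357 where all 4 arrays had to reach the median, a filter that left fewer genes to adjust for. Hoxc4 (0.44, SE 0.159) had a limma adjusted p of 0.102. With these, 4 Hox genes had an unadjusted p under 0.05, against 38.8% of all genes. Hoxd4, not tested because of its low level, differed by 0.55 without antibody and 1.04 with it, and was called without the filter on dim genes. Of 5 epithelial and mesothelial markers tested, 3 rose in BLS12 relative to BLS4 and 0 fell, against 23.6% of all genes called. They were Upk3b (3.06, SE 0.302, limma adjusted p = 0.00315), Msln (1.90) and Krt19 (1.34). Krt8 and Krt18 (both 0.25) were tested and not called. The summed intensity of the 7 epithelial and mesothelial markers was 1910 and 899 in BLS12 and 424 and 396 in BLS4, and their part in the Hox differences was not tested.

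The question of the stimulation was which genes respond to LTβR, and no tested Hox gene passed the threshold. By limma 0 of 25 were called (0.275% of all genes were), and 0 had an unadjusted p under 0.05 (11.6% of all genes did). The estimates ran from -0.53 to 0.23 with SEs of 0.137 to 0.225. The gene with the lowest adjusted p was Hoxd8, at -0.53 (SE 0.225, limma adjusted p = 0.452). The antibody differences were -0.11 in BLS4 and -0.95 in BLS12. Hoxc13 had an estimate of -0.34 (SE 0.178, limma adjusted p = 0.54), from -0.07 in BLS4 and -0.61 in BLS12. The highest estimate was 0.23 for Hoxc8. The median absolute response was 0.11 over the Hox genes and 0.14 over all genes. The 12 Hox genes left out of the model had cell line levels of 4.55 to 6.16 and antibody differences of -0.47 to 0.62. With 1 residual degree of freedom, a gene's own spread in this model is how far the lines disagree on the antibody difference. The model weighs it against a spread drawn from all genes, with 4.59 prior degrees of freedom. The SEs, such as the 0.137 of Hoxb9, therefore come mostly from the spread over all genes. The labels do not state separate cultures for a line's arrays, so p-values here cover the spread among these samples, possibly a technical one.

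**Figure D4:**
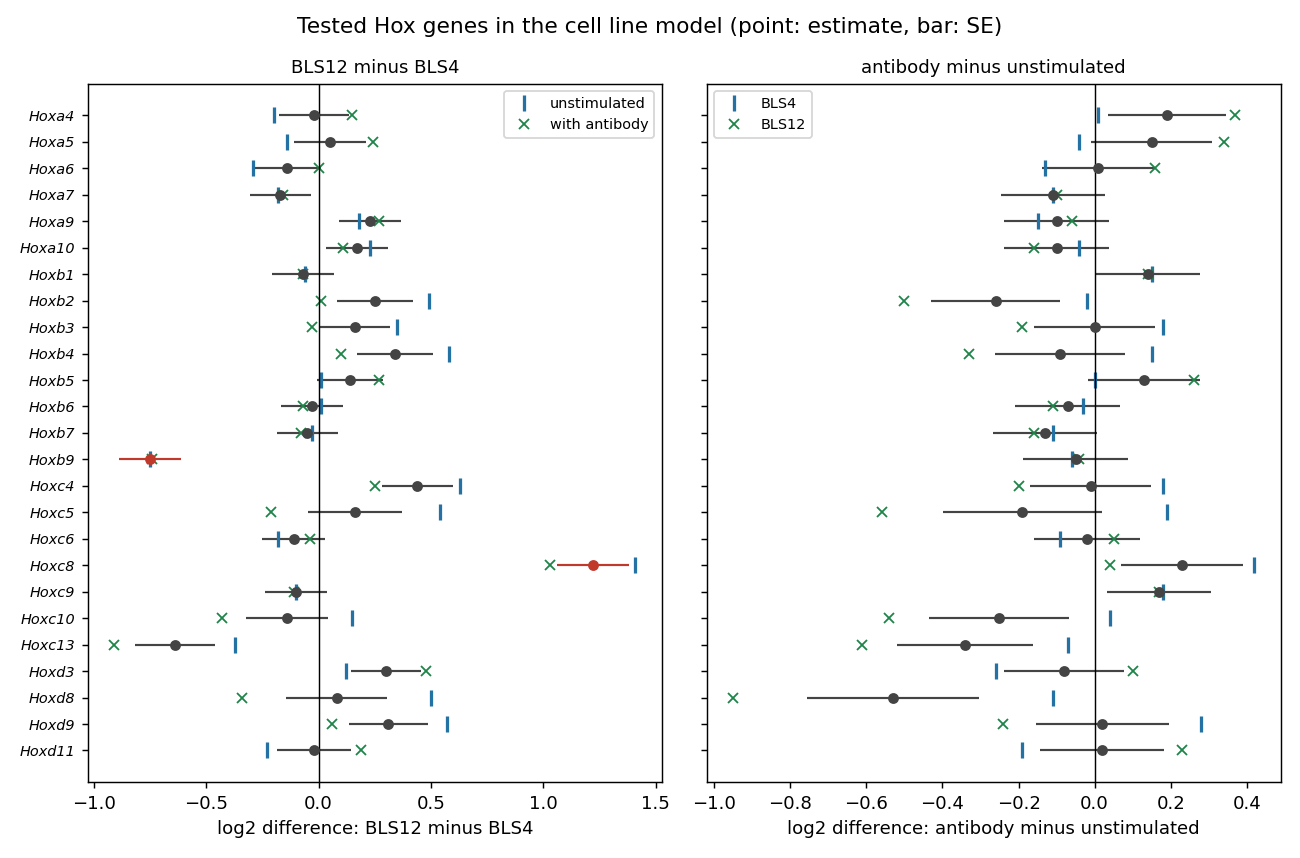
Estimates of the cell line model for the 25 tested Hox genes, as log2 difference of BLS12 minus BLS4 (left) and of antibody minus unstimulated (right); points are estimates, bars are 1 SE either way, and the other marks are the differences in each condition or line. The called genes, Hoxc8 at 1.22 and Hoxb9 at -0.75, are red, and no antibody estimate is called.

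Distances between arrays were taken over the 30 Hox genes that reached the median on some array. The median absolute difference between unstimulated and antibody-treated arrays was 0.11 in BLS4 and 0.20 in BLS12, against 0.13 and 0.21 over 13166 genes. Between the lines it was 0.22 without antibody (0.31 over all genes) and 0.13 with antibody on both (0.26). By this median the antibody-treated arrays of the lines lay closer to each other than the arrays of BLS12. By the share of these Hox genes at least 2-fold apart the order was the reverse, with 6.67% between the antibody-treated lines and 0% between the arrays of BLS12. LN stroma was 0.33 from BLS4 and 0.40 from BLS12, slightly less than all genes (0.36 and 0.46). MEF was 0.54 from BLS4 and 0.73 from BLS12, and here the value over all genes was lower, at 0.31 for both. Between MEF and LN stroma the median was 0.41, against 0.43 over all genes. Pairs of MEF with a cell line array had 26.7% to 33.3% of these Hox genes at least 2-fold apart, against 11.1% to 14% of all genes. For LN stroma the share was 16.7% with unstimulated BLS4, close to the 16.9% of all genes, and 6.67% with unstimulated BLS12, against 22.3%. These distances share arrays and are descriptions without a test.

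TALE homeodomain proteins (the Pbx, Meis, Pknox and Tgif genes) bind DNA together with Hox proteins or at their sites. All 10 with an entry were at or above the median on every array, 0 of 10 passed the test for the antibody, and 2 were lower in BLS12 than in BLS4 with 0 higher, near the 23.6% of all genes called between the lines. Tgif1, a repressor of the family, fell by 0.82 (SE 0.157, limma adjusted p = 0.0187), and Meis3 fell by 0.56 (SE 0.139, limma adjusted p = 0.0387). At 2-fold, Meis1, a main partner of posterior Hox proteins, was higher in LN stroma (8.86) than in MEF (7.70) and than in the unstimulated lines (7.26 and 7.16). Pknox2 was also highest in LN stroma, with 8.08 in LN stroma, 6.21 in MEF, and 6.71 and 6.74 in the lines. Tgif1 was lower in LN stroma (8.25) than in MEF (9.73).

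Polycomb complexes keep Hox genes silent outside their domain, and Trithorax proteins keep them active inside it. All 24 listed genes of these groups with an entry were at or above the median on every array, and 0 of 24 passed the test for the antibody. In BLS12 relative to BLS4, 3 of 24 rose and 0 fell, a smaller share than the 23.6% of all genes called. They were the histone methyltransferase Dot1l (1.08, SE 0.154, limma adjusted p = 0.00855) and the Polycomb subunits Ezh2 (0.88, SE 0.202, limma adjusted p = 0.0311) and Suz12 (0.78, SE 0.158, limma adjusted p = 0.0226). Kdm6b, which removes the Polycomb mark, was the only listed gene 4-fold higher in LN stroma (10.19) than in MEF (8.14), and it was 8.10 and 7.83 in the unstimulated lines. At 2-fold, 3 of the 24 were higher in LN stroma than in MEF (10.2% of all genes were) and 2 were lower (12.1%). In both unstimulated lines 1 of the 24 was 2-fold higher than in MEF (1.97%). These counts are near the shares of all genes.

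Genes beside the clusters give a comparison for the clusters' own levels. Of 14 such neighbours, 11 reached the median on some array, and of these 0 passed the test for the antibody. Between the lines 1 of 11 was called, against 23.6% of all genes: Jazf1, near the Hoxa cluster, rose in BLS12 relative to BLS4 (0.65, SE 0.155, limma adjusted p = 0.0354). Skap2, an adaptor gene next to the Hoxa cluster, was more than 2-fold higher in both unstimulated lines (8.83 and 8.92) than in MEF (7.79) and LN stroma (7.65). No neighbour differed by 2-fold between LN stroma and MEF, where 10.2% of all genes were higher and 12.1% lower. Non-coding genes within the clusters had an entry for 8 of 14, and none of the 8 reached the median on any array. Of the 6 caudal and ParaHox genes, which are relatives of the Hox family, 3 reached the median on some array, and 0 passed a threshold in any comparison.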

How the data were processed

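RNA was hybridised to 6 single-colour Affymetrix arrays. The authors deposited a linear intensity per entry, made with Affymetrix Expression Console 1.1 per the submitters' processing notes. Algorithm and genome build: not given in the sources used here. Since the lowest deposited intensity was 3.55, log2 was taken without floor or pseudocount. Of 35557 entries, 21789 named 1 gene, 1621 several and 12147 none; only the first were used, with the brightest entry for 999 genes with several. Probe annotation gave the symbols.

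The 4 cell line arrays were fitted with limma 3.58.1 in R 4.3.3 (line plus antibody, eBayes, two-sided, Benjamini-Hochberg at 0.05) over 11988 genes with at least 2 arrays at or above the median, giving 1 residual and 4.59 prior degrees of freedom. The procedure was tested on simulated data. MEF and LN stroma were compared by 4-fold counts, and by 2-fold counts as an alternative, among genes with at least 1 compared array at or above its median.

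The members and the 11 gene lists were chosen with earlier results of these data known. All members are accounted for; full values are given for members past a call rule or most 5′ in their cluster, and listed genes are named where called, up to 4 per list by size of difference. Promoter sequences came from RefSeq, GRCm38.p6 (21 Hox genes matched). Other scalings, filters, entry choices, priors, blocks and line arrays were tried.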

Additional observations from a re-analysis of the deposited data

Results flagged for a closer look

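Hoxd8 was singled out because the difference between the lines pointed in opposite directions in the 2 conditions, by at least 0.25 in each. Other Hox genes also changed sign without reaching that size in both conditions, such as Hoxc5 (0.54 without antibody and -0.21 with it) and Hoxc10 (0.15 and -0.43). For Hoxd8, BLS12 exceeded BLS4 by 0.50 without stimulation and lay below it, at -0.34, with antibody. This puts the conditions -0.84 apart on the log2 scale. The difference between conditions was not tested, since each line and condition had 1 array.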

How the results depend on the processing

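Across settings, only a few Hox genes with larger differences were followed in each comparison, and none of their differences or estimates changed sign. Smaller differences, such as those of Hoxc5 (0.01) and Hoxc11 (0.04) between LN stroma and MEF, were not followed. Centring lowered followed values in that comparison, such as Hoxd8 from 2.18 to 2.12, so signs that close to 0 may depend on the scaling. Hoxc8 and Hoxb9 were called between the lines in every limma setting, with Hoxd4 as the third call without a filter on dim genes and Hoxc13 where all 4 arrays had to reach the median. The antibody count was 0 in every setting. With a single condition there is no residual, and among the 25 tested genes the count at least 2-fold apart was 1 (Hoxc8) in either; the untested Hoxd4 also passed 2-fold with antibody (1.04). At 2-fold in place of 4-fold the counts were 7 for LN stroma against MEF, 8 for the lines against MEF and 2 for the lines against LN stroma. Lines against MEF gave 1 gene after centring each array on its median (Hoxc13), and 1 with either line left out (Hoxc13 without BLS12, Hoxd8 without BLS4). The cause of the centring change was not tested. Lines against LN stroma gave 0 where all compared arrays had to reach the median and 0 with antibody-treated arrays. At the 60th percentile in place of the median MEF and LN stroma each had 15 Hox genes and the lines 19 or 20, so MEF moved from the joint highest count to the joint lowest, and below the share of all genes. At the 75th percentile the counts were 2 in MEF, 2 in LN stroma, 5 and 3 in BLS4 and 3 and 1 in BLS12, that is 2.7% to 13.5% of Hox genes against 28.9% to 29.6% of all genes. The antibody fit pairs the arrays by cell line, and without that block the count was also 0. No paired analysis by replicate was possible because the labels give no replicate numbers. The number of arrays limits the precision.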

Other observations

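Retinoic acid sets Hox expression along the embryonic axis, and its 15 listed synthesis, breakdown, binding and receptor genes all had an entry. Of these, 13 reached the median on some array and 0 of 10 tested passed for the antibody. Between the lines, 1 of the 10 was called higher in BLS12 and 2 lower, against 23.6% of all genes called. At 2-fold, 1 of 13 kept was higher in both unstimulated lines than in MEF (1.97% of all genes were) and 5 were lower (3.85%). The binding proteins Crabp1 and Crabp2 were more than 4-fold higher in MEF (11.09 and 9.33) than in LN stroma (6.54 and 6.06), unstimulated BLS4 (6.57 and 7.19) and unstimulated BLS12 (6.35 and 6.13). Aldh1a1, a retinaldehyde dehydrogenase, was 8.26 in MEF, 10.57 in LN stroma, 9.49 in unstimulated BLS4 and 11.82 in unstimulated BLS12, and rose in BLS12 relative to BLS4 by 2.43 (SE 0.144, limma adjusted p = 0.000814). The other listed Aldh1a genes were lower in both unstimulated lines than in MEF and in LN stroma. Crabp2 fell in BLS12 relative to BLS4 by 1.01 (SE 0.138, limma adjusted p = 0.00753). Rdh10, which makes retinaldehyde, was more than 4-fold lower in both unstimulated lines (7.60 and 7.68) than in LN stroma (9.75).

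The entry shared by Hoxb7 and Hoxb8 had a level of 6.06 in MEF, 5.32 in LN stroma, 6.35 and 6.42 in BLS4 without and with antibody, and 6.03 and 5.80 in BLS12. LN stroma was the lowest array for it, as it was for the entry of Hoxb7 alone. On the Hoxb7 entry both unstimulated lines exceeded MEF (by 0.97 in BLS4 and 0.94 in BLS12). On the shared entry unstimulated BLS12 lay at the level of MEF. Which of the 2 genes gave the signal of the shared entry cannot be told.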
